A study of Rattus norvegicus with 36 samples.

Results

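The 8 genes described here, namely the caspase genes Casp1, Casp2, Casp4, Casp6, Casp8, Casp9 and Casp12 and the apoptosome scaffold gene Apaf1, belong to the cell's caspase machinery and were measured by mRNA sequencing in H9C2, a rat cardiac myoblast line. The members were taken by gene name, and all 8 were found, each under 1 identifier, among the 24275 genes listed in the count tables. H9C2 cells were transfected with 25 nmol/L of a mimic control (MC), of a miR-125b mimic, or of 1 of 4 isomiR mimics that differ from miR-125b at the 3′ end only. Plus A carries an added A, and Trim A, Trim AG and Trim AGU lack the bases their names give. A day later the cells were kept for another day either in hypoxia or in normoxia. In the study's methods, the hypoxic cells were held in serum-free low-glucose medium and the normoxic cells in fresh normal medium, so oxygen and medium cannot be told apart. Counts were available for 33 libraries in 11 groups of 3: all 6 mimics in hypoxia, and all but MC in normoxia. All groups come from 1 immortal cell line that received a transfection, so no untransfected or primary cells stand among them.

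Caspases are proteases that are made as inactive precursors and cut their substrates after aspartate. In the mitochondrial pathway of apoptosis, cytochrome c released into the cytosol lets the Apaf1 protein assemble into the apoptosome, which activates caspase-9, and caspase-9 then activates the executioner caspases. Death receptors at the cell surface start a parallel route through caspase-8, and a further group of caspases, to which caspase-1, caspase-4 and caspase-12 belong, serves inflammation and lytic cell death more than apoptosis. In heart muscle, loss of cells through these routes accompanies lack of oxygen. The amount of mRNA measured here says nothing of how much of each enzyme was active.

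The mimics' sequences are shown because the comparisons turn on their 3′ ends. The reference is rno-miR-125b-5p as RefSeq gives it on build GRCr8 (chr11:29732588-29732609, plus strand), and the isomiR sequences were derived from it by adding or removing the bases in their names. Capitals mark the seed, bases 2 to 8 from the 5′ end, with which a microRNA first pairs to its targets.
miR-125b: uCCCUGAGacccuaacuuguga
Plus A: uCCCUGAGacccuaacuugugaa
Trim A: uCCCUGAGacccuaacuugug
Trim AG: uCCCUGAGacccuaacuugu
Trim AGU: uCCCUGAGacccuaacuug
The 5 forms are 22, 23, 21, 20 and 19 bases long in this order, and all carry the same seed.

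The libraries held 28361216 to 42672584 counts, and the deepest were those of Hypoxia Trim AG (39940087 to 42672584). Replicate 1 of Normoxia Plus A and replicate 1 of Normoxia miR-125b stood apart from their groups in Cav1, a caveolin gene: 269 CPM (counts scaled to a common library total) against 98.0 and 98.3 in the other Plus A libraries, and 102 CPM against 282 and 263 in the other miR-125b libraries. Each of these libraries carried the Cav1 level of the other group, so the results that rest on them are given with and without them. Hypoxia Trim AGU had the widest spread between replicates. Its replicate 2 had the fewest genes with a count of any library, 16981, against 18663 and 18455 in replicates 1 and 3. Myoblast identity was checked on 7 markers: Myod1 (17.1 to 146 CPM), Myog (10.4 to 359 CPM) and Tnnt2 (9.22 to 316 CPM) were present in every library. Des lay at 0.855 to 4.98 CPM and Actc1 at 0.0664 to 35.0 CPM, whereas Myf5 did not exceed 0.0703 CPM and Myf6 did not exceed 0.165 CPM. The summed level of the 7 markers was 749 to 770 CPM in Hypoxia MC, 54.8 to 159 CPM in the other hypoxia groups and 174 to 239 CPM in normoxia. It thus moved with mimic and oxygen, and its part in the results below was not tested. The 5 cardiomyocyte markers summed to 10.57 to 20.05 CPM, most of it Gata4. The 3 mesenchymal markers, led by Col1a1, summed to 8100 to 30352 CPM and were lowest in Hypoxia Trim AG, so they too moved with mimic and oxygen. Pdgfra among them lay at only 0.025 to 0.846 CPM. Of 3 haematopoietic markers, the pan-leukocyte gene Ptprc lay at 0 to 0.188 CPM, Csf1r at 0.201 to 1.92 CPM and Cd68 at 0.493 to 2.43 CPM. In bulk RNA, fewer expressing cells and less RNA per cell cannot be told apart.

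Levels of different genes were compared per transcript length, in the FPKM that the authors deposited, a count of fragments scaled to gene length and library size. Casp4, the rodent sensor of intracellular lipopolysaccharide, had the highest mean over the 33 libraries at 76.9 FPKM. Casp12, a caspase linked to the endoplasmic reticulum in rodents, followed at 32.7 FPKM. Casp2 (8.96 FPKM), Apaf1 (8.83 FPKM), Casp9 (6.13 FPKM) and Casp8 (4.18 FPKM) came next, of which Casp2 and Apaf1 were closer to each other than the spread between their libraries. The executioner Casp6 (0.455 FPKM) and the inflammasome protease Casp1 (0.256 FPKM) were close to the lower limit of detection, with 4 to 180 and 3 to 29 counts per library. The inflammatory caspases Casp4 and Casp12 were thus the most abundant members, and Casp1, which lies beside them in the genome, was the least.

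The members also differed in how far they moved. Between the lowest and the highest of the 11 group means, in CPM, Casp4 spanned 6.09-fold, from Normoxia Trim AG to Hypoxia Trim AGU, and Casp12 spanned 3.71-fold, from Normoxia Trim AG to Hypoxia Trim AG. Apaf1 spanned 2.60-fold in the opposite order, from Hypoxia Trim AGU to Normoxia Trim AG. The outlying replicate 2 of Hypoxia Trim AGU was the highest library for Casp4 (186 CPM) and the lowest for Apaf1 (17.7 CPM), so both spans rest partly on it. Casp8 spanned 2.31-fold, Casp2 1.74-fold and Casp9 1.46-fold. The lowest-counted members, Casp6 and Casp1, spanned 16.3-fold and 3.82-fold, but their replicates disagreed. The coefficient of variation within a group reached 136% for Casp6 and 57.8% for Casp1, against at most 35.7% for Apaf1, 22.6% for Casp4 and 11.4% for Casp9.

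**Figure D1:**
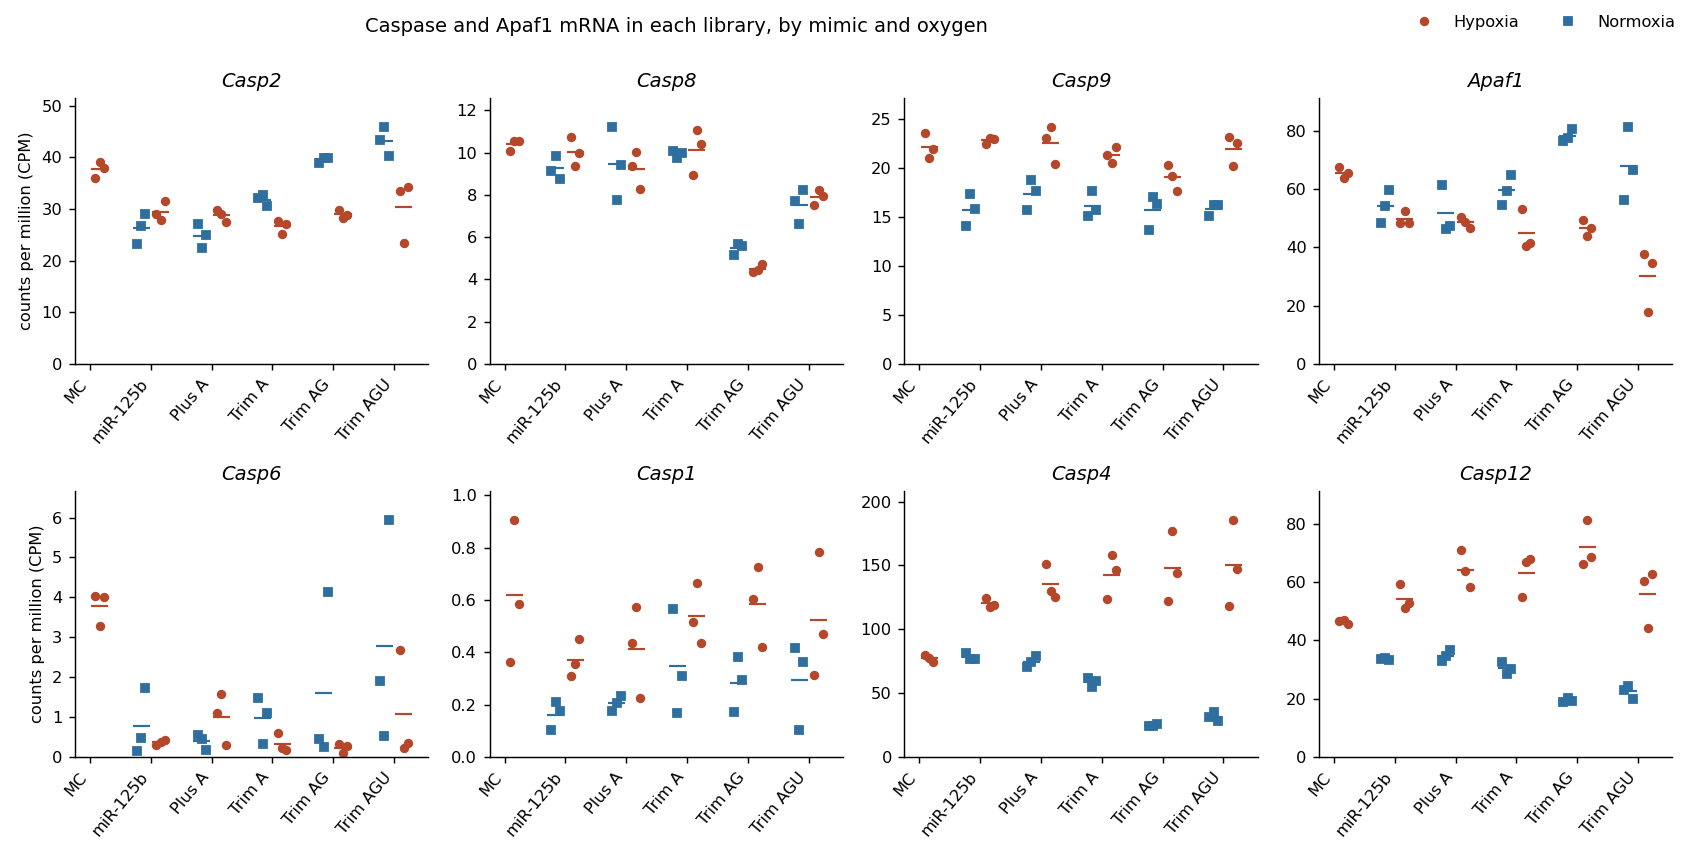
Each panel plots the CPM of 1 gene on a linear axis from 0, by mimic, with every library as a point (circles, hypoxia; squares, normoxia) and a line at the mean of 3 libraries; MC was plotted in hypoxia only. Casp4 and Casp12 separate by oxygen under each mimic measured in both states, Casp8 is low under Trim AG in both oxygen states, and Casp6 is high in all 3 Hypoxia MC libraries but also in single normoxia libraries of Trim AG and Trim AGU.

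The first comparison set each miR-125b form against MC in hypoxia. Casp4 rose with every form, Casp6 fell with all but Trim AGU, and Casp8 passed 1.5-fold, downward, with Trim AG alone. Casp12 passed 1.5-fold with Trim AG only and Apaf1 with Trim AGU only, and Casp9 did not pass the test under any mimic. A gene was called when the adjusted p of edgeR's quasi-likelihood test (Benjamini-Hochberg over all genes tested) was below 0.05 and the fold change at least 1.5. Of the 8 members, 2 were called with miR-125b, where 21.9% of 15143 genes were called. Likewise 2 were called with Plus A (24.8% of all genes tested), 2 with Trim AGU (23.8%), 4 with Trim AG (37.2%) and 2 with Trim A (28.1%). These shares are near the background, so the set of members did not stand out by its number of calls. The median log2 fold change of the members lay between -0.26 with Plus A and -0.08 with Trim A, and that of all genes tested between -0.02 and 0.00. All 5 comparisons share the same 3 MC libraries.

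Casp9 and Apaf1 form the apoptosome. Casp9, the initiator caspase, was at 23.6, 21.1 and 22.0 CPM in Hypoxia MC and at 22.5, 23.1 and 23.0 CPM in Hypoxia miR-125b. The groups overlapped, and the log2 fold change was 0.08 (95% interval -0.05 to 0.21), with intervals that included 0 for the other 4 mimics too. Apaf1, the scaffold, was at 67.5, 63.9 and 65.6 CPM in Hypoxia MC and at 48.5, 52.4 and 48.3 CPM in Hypoxia miR-125b, without overlap. Its log2 fold change was -0.36 ± 0.05 (SE) with miR-125b (edgeR adjusted p = 3.89e-05), and -0.41 for Plus A, -0.43 for Trim AG and -0.50 for Trim A, all below the 1.5-fold limit. Trim AGU alone carried Apaf1 past that limit. Its libraries held 37.6, 17.7 and 34.7 CPM, all below MC, and the log2 fold change was -1.01 ± 0.23 (edgeR adjusted p = 0.0185). Without replicate 2, the lowest library, the value was -0.78 (edgeR adjusted p = 8.87e-05), whereas leaving out MC replicate 1, 2 or 3 ended the call (edgeR adjusted p = 0.0716, 0.0663 and 0.0703).

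Casp2 is an initiator caspase that responds to DNA damage and mitotic faults. It was at 36.0, 39.1 and 38 CPM in Hypoxia MC and at 28.9, 27.8 and 31.6 CPM in Hypoxia miR-125b, again without overlap. The log2 fold changes of -0.32 with miR-125b, -0.37 with Plus A, -0.46 with Trim A and -0.32 with Trim AG had adjusted p-values of 0.000906, 0.000511, 0.000973 and 0.00386 in edgeR's quasi-likelihood test, but were under 1.5-fold. With Trim AGU the value was -0.18 (95% interval -0.49 to 0.13). Casp8, the initiator at death receptors, was at 10.1, 10.5 and 10.6 CPM in Hypoxia MC and overlapped with miR-125b (10.7, 9.36 and 9.98 CPM). It passed 1.5-fold with Trim AG only, at 4.36, 4.43 and 4.73 CPM. The Trim AGU libraries, at 7.54, 8.22 and 7.96 CPM, also lay below MC but were not called. The log2 fold change with Trim AG was -1.14 ± 0.12 (edgeR adjusted p = 6.11e-05), a 2.21-fold lower level. The other 4 mimics gave between -0.25 and 0.01, each with a 95% interval across 0.

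Casp6, an executioner caspase known for cutting lamins, was at 4.03, 3.29 and 4.02 CPM in Hypoxia MC, from 98 to 122 counts. It was at 0.309, 0.387 and 0.420 CPM in Hypoxia miR-125b, from 9 to 13 counts. The groups did not overlap, and the level was 9.78-fold lower with miR-125b (log2 fold change -3.29 ± 0.22, edgeR adjusted p = 2.82e-07). It was 10.9-fold lower with Trim A and 15.3-fold lower with Trim AG (edgeR adjusted p = 0.0002 and 2e-05). With Plus A its libraries held 1.10, 1.58 and 0.291 CPM, and the level was 3.75-fold lower (edgeR adjusted p = 0.00303), a call that a single fit over all libraries did not keep (edgeR adjusted p = 0.0897). With Trim AGU they held 2.69, 0.220 and 0.352 CPM, so that replicate 1 lay near MC and the others far below. The log2 fold change with Trim AGU was -1.70 (95% interval -3.61 to 0.21, edgeR adjusted p = 0.151), and -3.54 without replicate 1 (edgeR adjusted p = 0.00235). Casp6 was the lowest-counted member that passed the test.

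Of the inflammatory caspases, Casp1 was at 0.364, 0.907 and 0.583 CPM in Hypoxia MC, and no difference was detectable at this depth (with miR-125b, log2 fold change -0.69, 95% interval -1.62 to 0.25). Casp4 was at 80.1, 77.9 and 74.6 CPM in Hypoxia MC and at 124, 118 and 119 CPM in Hypoxia miR-125b. No library of any miR-125b form overlapped with MC: Plus A held 151, 130 and 125 CPM, Trim A 124, 158 and 146 CPM, Trim AG 122, 177 and 144 CPM, and Trim AGU 118, 186 and 147 CPM. Casp4 rose 1.59-fold with miR-125b (log2 fold change 0.67 ± 0.04, edgeR adjusted p = 1.25e-07), 1.77-fold with Plus A, 1.90-fold with Trim A and 1.99-fold with Trim AG (edgeR adjusted p = 7.34e-06, 0.000181 and 0.000259). With Trim AGU it rose 2.16-fold (log2 fold change 1.11 ± 0.21, edgeR adjusted p = 0.0103). The Trim AGU call ended without MC replicate 2 or MC replicate 3 (edgeR adjusted p = 0.0521 and 0.0567) and held without its own replicate 2 (log2 fold change 0.86, edgeR adjusted p = 0.00031).

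Casp12 moved the same way by less. It was at 46.5, 46.8 and 45.6 CPM in Hypoxia MC, at 59.4, 51.1 and 52.7 CPM in Hypoxia miR-125b and at 66.3, 81.4 and 68.5 CPM in Hypoxia Trim AG. It rose 1.63-fold with Trim AG (log2 fold change 0.70 ± 0.10, edgeR adjusted p = 0.000283). The values of 0.27 with miR-125b, 0.40 with Trim AGU and 0.50 with both Plus A and Trim A were under 1.5-fold, at edgeR adjusted p = 0.00219, 0.0412, 0.000231 and 0.00275. Only Trim AGU overlapped with MC, through its replicate 2 at 44.4 CPM. Without replicate 1 of Hypoxia Trim A, both Casp12 (0.59) and Apaf1 (-0.63) passed with Trim A (edgeR adjusted p = 1.26e-06 and 1.4e-06).

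**Figure D2:**
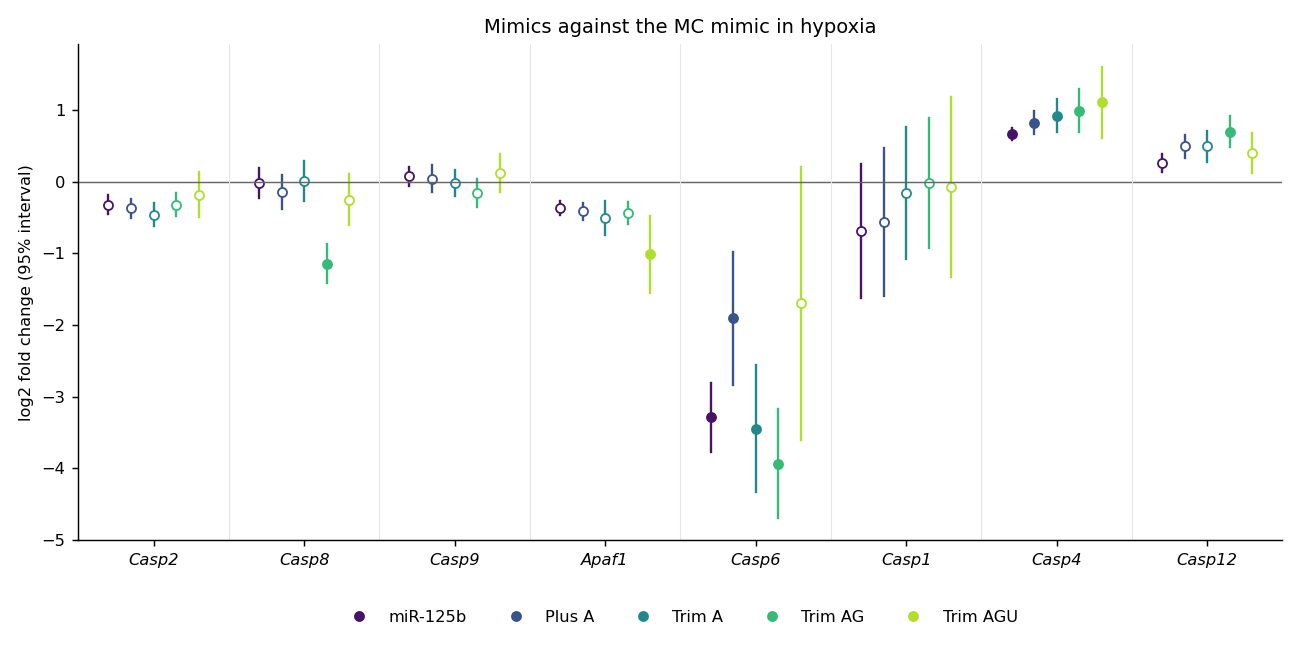
The plot gives the log2 fold change of each member against MC in hypoxia for the 5 mimics, with its 95% interval; filled points passed an adjusted p below 0.05 and 1.5-fold, open points did not. Casp4 lies between 0.67 and 1.11 with every mimic, Casp6 between -3.94 and -1.70, and Casp8 leaves 0 with Trim AG alone (-1.14).

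The isomiR mimics were then set against miR-125b itself in hypoxia, to see what the changed 3′ end altered. Casp8 was lower with Trim AG, and no other member was called with any isomiR. None of the 8 members was called with Plus A (2.03% of all genes tested were), none with Trim A (0.873%), 1 with Trim AG (19.3%) and none with Trim AGU (3.75%). Casp8 was at 10.7, 9.36 and 9.98 CPM with miR-125b and at 4.36, 4.43 and 4.73 CPM with Trim AG. The groups lay far apart, at a log2 fold change of -1.13 ± 0.12 (edgeR adjusted p = 0.000226), or 2.19-fold lower. Under the 1.5-fold limit, Casp12 was higher with Trim AG (log2 fold change 0.43, edgeR adjusted p = 0.0132) and Casp9 lower (-0.25, edgeR adjusted p = 0.0381). The rise of Casp4 over MC did not differ detectably between miR-125b and the isomiRs: its 95% intervals against miR-125b spanned -0.06 to 0.92 (Trim AGU), 0.01 to 0.62 (Trim AG), 0.02 to 0.48 (Trim A) and 0.00 to 0.30 (Plus A), with no adjusted p below 0.0873 in edgeR's test. These intervals do not show that the forms act alike. Casp6 with Plus A gave 1.38 (95% interval 0.16 to 2.61, edgeR adjusted p = 0.118), and 1.82 without Plus A replicate 3 (edgeR adjusted p = 0.0115).

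In normoxia the same mimics gave another picture. Against miR-125b, Casp4 was lower with Trim AG and Trim AGU, Casp12 and Casp8 were lower with Trim AG, and Casp2 was higher with Trim AGU. MC had no counts in normoxia, so these are differences from miR-125b and not from a control. Casp1 had too few counts to be tested in any of these 4 comparisons, which leaves 7 members. None of the 7 was called with Plus A, where edgeR's test called 0% of 14781 genes. There 404 genes, and 0 of the 7 members, had an unadjusted p below 0.05, and DESeq2 called 1 gene. Without the doubted libraries, 166 genes were called with Plus A and still no member. None was called with Trim A (0.414% of all genes tested), 3 with Trim AG (13.9%) and 2 with Trim AGU (11.4%).

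Casp4 was at 81.1, 77.0 and 76.9 CPM in Normoxia miR-125b, at 62.2, 54.7 and 59.5 CPM with Trim A, at 24.0, 24.3 and 25.7 CPM with Trim AG and at 31.0, 34.9 and 28.2 CPM with Trim AGU. None of these 4 groups overlapped with another, and Trim AG was the lowest. Casp4 was 3.28-fold lower with Trim AG (log2 fold change -1.71 ± 0.06, edgeR adjusted p = 1.34e-06) and 2.51-fold lower with Trim AGU (-1.33 ± 0.09, edgeR adjusted p = 0.000106). With Trim A the value was -0.41 ± 0.06 (edgeR adjusted p = 0.0197), under the 1.5-fold limit. Plus A, at 70.2, 74.1 and 78.9 CPM, overlapped with miR-125b.

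Casp12 was at 33.5, 33.9 and 33.3 CPM in Normoxia miR-125b, at 18.9, 20.2 and 19.2 CPM with Trim AG and at 23.1, 24.4 and 19.9 CPM with Trim AGU. It was 1.78-fold lower with Trim AG (log2 fold change -0.83 ± 0.06, edgeR adjusted p = 2.45e-05). With Trim AGU the value of -0.58 (edgeR adjusted p = 0.00256) fell just short of 1.5-fold. It passed that limit when replicate 1 of Normoxia miR-125b, 1 of the doubted libraries, was left out (-0.59, edgeR adjusted p = 0.0104), and likewise without miR-125b replicate 3 or Trim AGU replicate 1 or 2.

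Casp8 was at 9.14, 9.85 and 8.76 CPM in Normoxia miR-125b and at 5.14, 5.68 and 5.60 CPM with Trim AG, without overlap. Its log2 fold change of -0.80 ± 0.12 (edgeR adjusted p = 0.000687) thus had the sign it had in hypoxia. The Trim AGU libraries of Casp8, at 7.72, 6.62 and 8.22 CPM, also lay below miR-125b but were not called. Casp2 was at 23.2, 26.7 and 29.1 CPM with miR-125b, at 38.9, 39.9 and 39.9 CPM with Trim AG and at 43.4, 45.9 and 40.3 CPM with Trim AGU. It rose 1.63-fold with Trim AGU (log2 fold change 0.71 ± 0.10, edgeR adjusted p = 0.00132), while Trim AG gave 0.54 (edgeR adjusted p = 0.000718), under the limit. Without miR-125b replicate 3, the Trim AG value of Casp2 was 0.62 and passed it (edgeR adjusted p = 0.000755). Apaf1 was at 48.4, 54.3 and 59.8 CPM with miR-125b and at 76.5, 77.4 and 80.6 CPM with Trim AG. This difference of 0.48 on the log2 scale (edgeR adjusted p = 0.000876) was also under the limit. Casp9 stayed within 13.7 to 18.8 CPM in every normoxia library. Casp6 could not be ordered in normoxia, because single libraries (4.12 CPM in Trim AG replicate 3, 5.95 CPM in Trim AGU replicate 3) stood far above the others of their groups.

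All 5 calls in normoxia held when replicate 1 of Normoxia Plus A and of Normoxia miR-125b were both left out, and the Trim AGU value of Casp12 was then called too, which made 6.

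**Figure D3:**
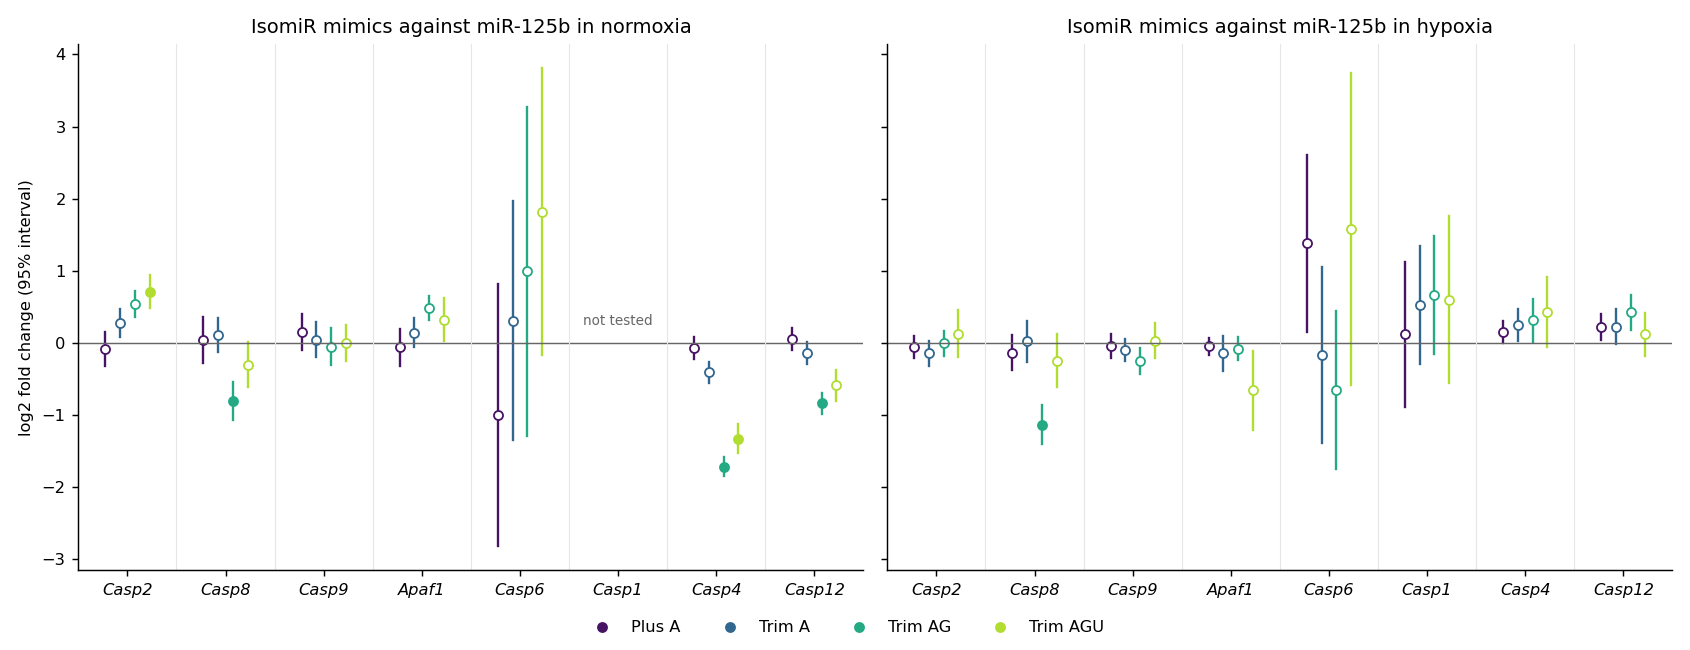
The panels give the log2 fold change of each member with the 4 isomiR mimics against miR-125b, in normoxia and in hypoxia, with its 95% interval; filled points passed an adjusted p below 0.05 and 1.5-fold, and Casp1 was not tested in normoxia. Casp8 with Trim AG is below 0 in both panels (-0.80 and -1.13), whereas Casp4 with Trim AG is at -1.71 in normoxia and 0.32 in hypoxia.

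Hypoxia was compared with normoxia under each mimic. Casp12 rose under all 5 mimics and Casp4 under 4 of them, with the largest values under Trim AG, and Apaf1 fell under Trim AG and Trim AGU. Of the members tested, 1 of 7 was called under miR-125b (20.9% of all genes tested), 2 of 7 under Plus A (22.8%), 2 of 8 under Trim A (26.5%), 4 of 8 under Trim AG (32.8%) and 3 of 8 under Trim AGU (27.0%). These shares too lie around the background.

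Casp4 under Trim AG was at 24.0, 24.3 and 25.7 CPM in normoxia and at 122, 177 and 144 CPM in hypoxia. That 6.02-fold rise (log2 fold change 2.59 ± 0.14, edgeR adjusted p = 1.77e-06) was the largest of any member in these comparisons. Casp4 rose 4.98-fold under Trim AGU (edgeR adjusted p = 0.000621), 2.30-fold under Trim A (5.14e-05 in the same test) and 1.69-fold under Plus A (6.13e-05). Under miR-125b the libraries held 81.1, 77.0 and 76.9 CPM in normoxia and 124, 118 and 119 CPM in hypoxia, a 1.45-fold difference that did not overlap (edgeR adjusted p = 1.85e-05) and was under the limit. Casp12 rose 3.73-fold under Trim AG (log2 fold change 1.90 ± 0.10, edgeR adjusted p = 1.79e-06), from 18.9, 20.2 and 19.2 CPM to 66.3, 81.4 and 68.5 CPM. Its folds were 2.54 under Trim AGU, 1.98 under Trim A, 1.72 under Plus A and 1.53 under miR-125b (edgeR adjusted p = 0.00119, 0.000124, 5.69e-05 and 6.61e-05). The miR-125b call was lost without replicate 1 of Hypoxia miR-125b (log2 fold change 0.55), by the 1.5-fold limit and not by its adjusted p in edgeR's test of 0.00031. Without the doubted libraries, the log2 fold changes of Casp4 and Casp12 were 0.56 and 0.61 under miR-125b and 0.69 and 0.72 under Plus A, and each stayed on its side of the limit.

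Apaf1 under Trim AG was at 76.5, 77.4 and 80.6 CPM in normoxia and at 49.2, 43.8 and 46.6 CPM in hypoxia, 1.67-fold lower (log2 fold change -0.74 ± 0.07, edgeR adjusted p = 4.72e-05). Under Trim AGU it was 2.23-fold lower (-1.16 ± 0.25, edgeR adjusted p = 0.0138), -0.94 without the outlying replicate 2 of Hypoxia Trim AGU, and no longer called without Normoxia Trim AGU replicate 2 (edgeR adjusted p = 0.0618). Casp9 was higher in hypoxia under each mimic by 0.27 to 0.51 on the log2 scale. Its libraries in hypoxia all lay above those in normoxia under all 5 mimics, but no value reached 1.5-fold. Not every value passed edgeR's test either: under Plus A the adjusted p of Casp9 was not below 0.05. Casp6 under Trim AG was called (log2 fold change -2.77 ± 0.97, edgeR adjusted p = 0.0366) although its groups overlapped, at 0.452, 0.244 and 4.12 CPM in normoxia and 0.315, 0.10 and 0.281 CPM in hypoxia. That call rested on Normoxia Trim AG replicate 3, without which the value was -0.57 (edgeR adjusted p = 0.494), and it also ended without Hypoxia Trim AG replicate 2 or replicate 3 (edgeR adjusted p = 0.07 and 0.0734). Under miR-125b Casp6 gave -1.15 (edgeR adjusted p = 0.214), and -1.65 without the doubted replicate 1 of Normoxia miR-125b (edgeR adjusted p = 0.0239). Casp1 was tested under the 3 trimmed forms and did not pass, with 1.04 under Trim AG (95% interval 0.10 to 1.97, edgeR adjusted p = 0.0588). Casp2, at -0.33, -0.44 and -0.48 under the 3 trimmed forms, stayed under 1.5-fold (edgeR adjusted p = 0.00685, 0.000622 and 0.0487). Without replicate 1 of Hypoxia Trim A, Apaf1 and Casp6 passed under Trim A too (-0.61 and -2.34, edgeR adjusted p = 4.69e-05 and 0.0114).

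**Figure D4:**
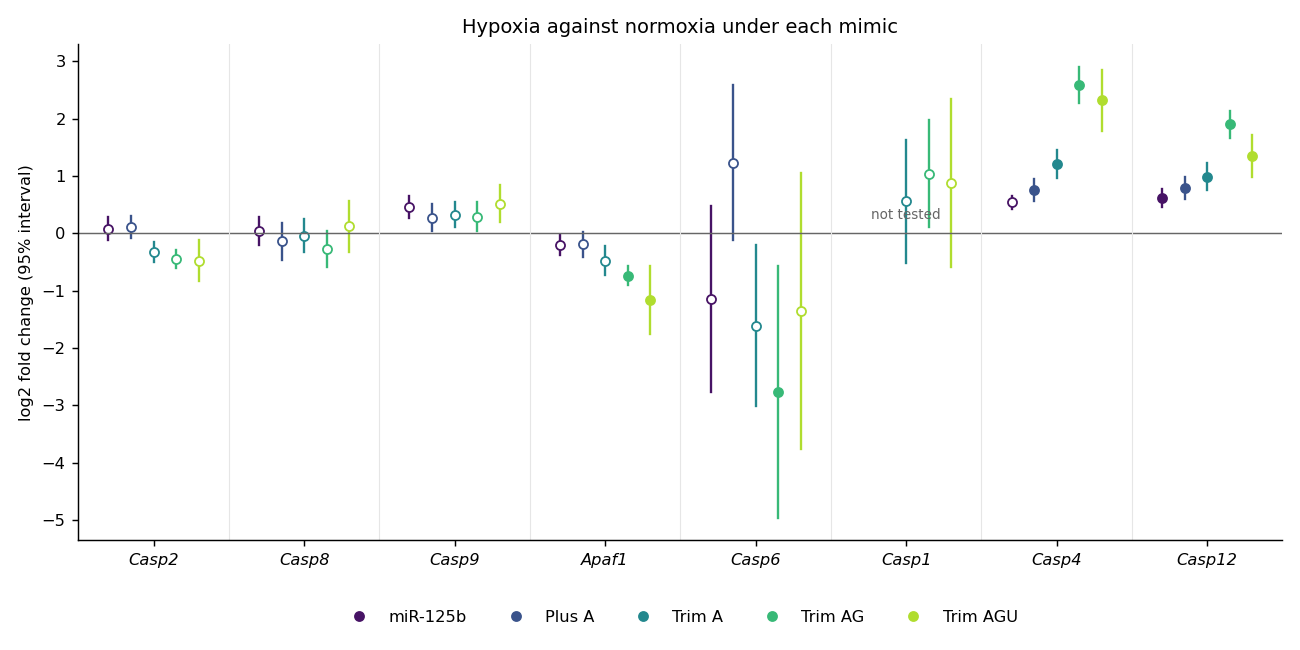
The plot gives the log2 fold change of each member in hypoxia against normoxia under the 5 mimics, with its 95% interval; filled points passed an adjusted p below 0.05 and 1.5-fold. Casp4 runs from 0.54 under miR-125b to 2.59 under Trim AG, Casp12 from 0.61 to 1.90, and Apaf1 is at -0.74 under Trim AG and -1.16 under Trim AGU.

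Whether an isomiR's difference from miR-125b depended on oxygen was tested by the interaction term of a fit over 4 groups, called at an adjusted p below 0.05. With Trim AG, 4 of the 8 members passed, where 22.7% of all genes tested did: Casp4 and Casp12 were higher in hypoxia by more than under miR-125b, and Apaf1 was lower by more. Casp2 was lower in hypoxia under Trim AG (-0.44) but not under miR-125b (0.08). The difference of log2 differences was 2.02 ± 0.16 for Casp4 and 1.25 ± 0.13 for Casp12 (edgeR adjusted p = 1.27e-05 and 5.13e-05). It was -0.58 ± 0.10 for Apaf1 and -0.56 ± 0.11 for Casp2 (edgeR adjusted p = 0.00236 and 0.00389). Without the doubted libraries these values were 1.99, 1.25, -0.50 and -0.48, and all 4 still passed. Casp8, low with Trim AG in both states, gave -0.34 (95% interval -0.69 to 0.00, edgeR adjusted p = 0.14). With Trim AGU, 1 of 8 members passed (0.966% of all genes tested), namely Casp4 at 1.80 ± 0.25 (edgeR adjusted p = 0.0104), while Casp12 at 0.74 just missed (edgeR adjusted p = 0.0506). Without replicate 2 of Hypoxia Trim AGU, Casp4 (1.49), Casp12 (0.79) and Apaf1 (-0.76) passed, at edgeR adjusted p = 0.000417, 0.00711 and 0.0292. Without replicate 1 of that group, Casp12, Apaf1 and Casp2 passed beside Casp4 (edgeR adjusted p = 0.0191, 0.0249 and 0.0462). DESeq2 also called these 3 with all libraries in the fit. The Trim AGU call of Casp4 ended without replicate 1 or replicate 3 of Hypoxia miR-125b (edgeR adjusted p = 0.0516 and 0.0514), and without the doubted libraries it was 1.74 (edgeR adjusted p = 0.0449). With Trim A, 1 of 8 passed (0.811%), again Casp4, at 0.67 ± 0.12 (edgeR adjusted p = 0.0363), a call that 10 of the 12 fits with 1 library left out did not keep, nor did the fit without the doubted libraries (edgeR adjusted p = 0.0706). Without replicate 1 of Hypoxia Trim A, Apaf1 (-0.40), Casp2 (-0.43) and Casp12 (0.47) passed beside Casp4 (edgeR adjusted p = 0.0191, 0.0165 and 0.00298). The shares of all genes passing in fits with a library left out are not given here, so these calls have no background beside them. With Plus A none of the 8 passed (0.0385%), with or without the doubted libraries.

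Casp1, Casp4 and Casp12 are neighbours. The tables place all 3 on the plus strand of chromosome 8, at 2604962-2614631, 2635851-2651652 and 2659865-2686160, on a genome build they do not name, with no other listed gene in the 81199 bases they span. The remaining members lie on other chromosomes: Casp2 at 4:71652354-71670239 (plus strand), Casp6 at 2:230186205-230199584 (plus), Casp8 at 9:65614142-65662106 (plus), Casp9 at 5:160355833-160373778 (plus) and Apaf1 at 7:31699885-31784192 (minus). Casp1, Casp4 and Casp12 are related in sequence, so reads shared between them may have been split by the counting, and their levels are uncertain to that extent. Over the 11 group means of log2 CPM, Casp4 and Casp12 had a Pearson correlation of 0.97. It was 0.86 over the 6 hypoxia groups and 1.00 over the 5 normoxia groups, which share the libraries and their depth. Over the 11 group means, genes outside this stretch came closer: Arl14ep to Casp4 and Rars2 to Casp12 (both 0.99). The value of 0.97 is thus not particular to neighbours. Casp1, at under 1 CPM throughout, could not be followed with like precision. Apaf1 ran against Casp4, at -0.87 over the 11 group means.

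**Figure D5:**
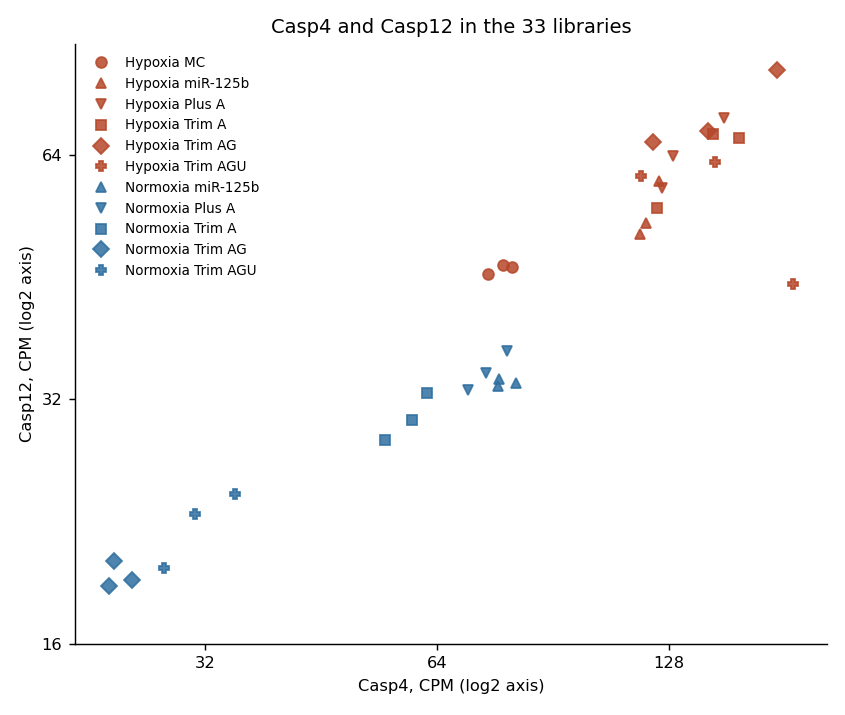
Each point is 1 of the 33 libraries, with Casp4 on the x axis and Casp12 on the y axis in CPM on log2 axes, coloured by oxygen and shaped by mimic. The libraries run from Normoxia Trim AG (Casp4 at 24.0 to 25.7 CPM) up to the hypoxia groups, with Hypoxia Trim AGU replicate 2 off the line at 186 CPM for Casp4 and 44.4 CPM for Casp12.

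The promoters of Casp1 and Casp12 were read from RefSeq (GRCr8), which held an entry for 6 of the 8 members, from 250 bases before to 50 bases after the start. They are shown because both hold, just before the start, the same 10 bases, in capitals, a match to GAAANNGAAA (TTTCNNTTTC when read on the other strand), a pattern noticed after the sequences had been read. The first window is at chr8:10872794-10872819 and the second at chr8:10927142-10927167.
Casp1: ctagatgcTTTCAGTTTCagtagctc
Casp12: cagattgcTTTCAGTTTCattgcttt
The match ends 19 bases before the start of Casp1 and 29 bases before that of Casp12. On either strand, 4.12% of the 27457 genes with such an entry held a match, and none of Casp2, Casp6, Casp9 and Apaf1 did. Casp4 and Casp8 had no entry. A match is a description of letters and no measurement of binding.

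For each member with a mean of at least 1 CPM, the 2 named genes with the most similar profile over the 11 group means were taken from 11687 genes by Pearson's r. Casp4 was closest to Arl14ep and Trib3 (both r = 0.99) and Casp12 to Rars2 and Zfand2a (both r = 0.99). Apaf1 was closest to Klf13 and Btbd3 (both r = 0.98), Casp9 to Spns1 (r = 0.98) and Fkbpl (r = 0.97), and Casp8 to Cox7b2 (r = 0.97) and Gaa (r = 0.96). Casp2 was closest to Zfp41 (r = 0.96) and Slfn3 (r = 0.95), and Casp6 to Csnk1e and Dis3l2 (both r = 0.96). The 11 points share their libraries, oxygen and mimics, and the values are a description without a test.

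The genes around the members in the pathway were followed as lists. Of the 12 platform and adaptor genes, which recruit caspases, 9 were tested against MC in hypoxia, and 2 were called with miR-125b, 3 each with Plus A and Trim A, and 4 each with Trim AG and Trim AGU, where 21.9%, 24.8%, 28.1%, 37.2% and 23.8% of all genes tested were called in the order miR-125b, Plus A and the 3 trimmed forms. Their median log2 fold change lay between -0.32 and 0.07. Nlrp3, the sensor of the inflammasome that activates caspase-1, fell with all 5, from 8.96 ± 0.897 CPM (SD, n = 3) in MC to 3.96 ± 0.261 CPM with miR-125b, 2.20-fold lower (edgeR adjusted p = 1.63e-05). Tradd, an adaptor of death receptors, rose 1.63-fold with miR-125b (edgeR adjusted p = 3.73e-06). Pycard, the inflammasome adaptor, was 2.72-fold lower with Trim AG and 2.54-fold lower with Plus A (edgeR adjusted p = 0.000822 and 0.000159). With Trim A it was 1.63-fold lower (edgeR adjusted p = 0.0188, lost in 2 of 6 fits with 1 library left out). Cycs, which encodes the cytochrome c that Apaf1 binds and has near copies in the genome, was at 146 ± 6.88 CPM in MC and 267 ± 45.0 CPM with Trim AG, 1.90-fold higher (edgeR adjusted p = 0.000295). With Trim AGU it was 1.69-fold higher (edgeR adjusted p = 0.0178, lost in 4 of 6 fits with 1 library left out). Against miR-125b, Tradd was 2.02-fold lower with Trim AG in hypoxia and 1.79-fold lower in normoxia (edgeR adjusted p = 6.06e-05 and 6.2e-05), as Casp8 was. Fadd, another adaptor of this list, was not called in these comparisons and had the higher mean with Trim AG. It was at 10.2 CPM against 7.13 CPM with miR-125b in normoxia, and at 5.87 CPM against 4.87 CPM in hypoxia.

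All 8 inhibitors of caspases were tested, and with Trim AG against MC 3 rose and 2 fell, while 1 to 3 were called with the other mimics. Of all genes tested, 37.2% were called with Trim AG and 21.9% to 28.1% with the others, so most of these counts are near the background. Their median log2 fold change lay between -0.11 and 0.16. Birc5, an inhibitor of apoptosis protein that also serves cell division, rose with each of the 5 mimics in hypoxia, from 8.01 ± 0.556 CPM in MC to 20.9 ± 1.41 CPM with miR-125b and 57.3 ± 7.16 CPM with Trim AG. These were rises of 2.68-fold and 7.48-fold (edgeR adjusted p = 1.51e-07 and 6.49e-07). Xiap, a direct inhibitor of executioner caspases and of caspase-9, fell 1.54-fold with miR-125b and with Trim A (edgeR adjusted p = 0.000249 and 0.00274, each lost in 2 of 6 fits with 1 library left out). It was also called lower with Trim AG. With Plus A it was 1.41-fold lower, under the limit (edgeR adjusted p = 0.00368). Pea15, which binds death effector domains, was 2.56-fold lower with Trim AG (edgeR adjusted p = 2.38e-06). Of the 4 antagonists of those inhibitors, 3 were tested and Xaf1 matched no row. Their medians lay between 0.05 and 0.63. Htra2, a mitochondrial protease, rose 1.53-fold with miR-125b (edgeR adjusted p = 1.82e-07), and Sept4 fell 1.60-fold (edgeR adjusted p = 0.0139, lost in 1 of 6 fits with 1 library left out). Diablo was at 79.1 CPM in MC and 79.7 CPM with miR-125b. Under the 1.5-fold limit, it was higher with Trim AG (107 CPM, log2 fold change 0.50) and Plus A (88.1 CPM, 0.18), at edgeR adjusted p = 0.00393 and 0.0186. With Trim A and Trim AGU it gave 0.20 and 0.63 (edgeR adjusted p = 0.168 and 0.0814). Of the 14 substrates and effectors, 10 were tested, 1 to 3 were called with a given mimic (21.9% to 37.2% of all genes tested), and the medians lay between -0.05 and 0.10. Gsdmd, the pore former cut by inflammatory caspases, fell with all 5 mimics, from 98.9 ± 3.15 CPM in MC to 60.9 ± 0.918 CPM with miR-125b and 31.9 ± 3.64 CPM with Trim AG (edgeR adjusted p = 9.96e-08 and 2.97e-06). With Trim AGU the calls of Gsdmd and Nlrp3 ended in 4 and 3 of the 6 fits that left out 1 library. Dffa, the inhibitor of the caspase-activated nuclease, fell 1.65-fold with miR-125b (edgeR adjusted p = 1.27e-05). In normoxia, Casp4 was lower with Trim AG and Trim AGU than with miR-125b. There 1 and 2 of the 10 substrates and effectors were called against miR-125b, near the 13.9% and 11.4% of all genes tested.

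For Normoxia MC only the authors' group means were used here, on their own normalised count scale, beside those of Normoxia Plus A, with no spread. The authors' mean for Casp4 was 563 in MC and 2211 in Plus A, and that for Casp12 was 551 and 1030. Apaf1 (2250 and 1534), Casp2 (1062 and 735) and Casp6 (19.0 and 11.5) were lower with Plus A, while Casp8 (310 and 281) and Casp9 (510 and 517) were close. Casp1 was at 18.2 and 6.08. For Casp4, Casp12, Apaf1 and Casp2, MC differed from Plus A in the direction in which Trim AG differed from miR-125b in normoxia. Casp8, lower with Trim AG, was not lower in MC. With no replicate values, none of these differences could be tested.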

How the data were processed

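Poly-A selected, non-stranded libraries were made from total RNA of H9C2 cells and sequenced on an Illumina platform. The authors deposited 11 tables of raw counts per gene with FPKM values of the same libraries, and 1 table with group means of a normalised signal. HISAT2 and StringTie are named in the submitters' processing notes without versions, and the genome build is not given in the sources used here. The deposited fold changes and p-values were not used.

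The tables were joined on gene identifier, with absent genes set to 0, and no value differed between tables. CPM are counts scaled to a library total of 1000000 over all listed genes. Genes were filtered by filterByExpr, scaled by TMM and tested with edgeR's quasi-likelihood test (edgeR 4.0.16, R 4.3.3) on the 2 groups compared, with Benjamini-Hochberg adjustment over all genes tested. The interaction was fitted over 4 groups. The log2 TMM factors of tested minus reference groups differed by over 0.1 for Trim AGU against MC (-0.13) and for hypoxia against normoxia under Plus A (0.11), and fold changes are relative to that scaling. DESeq2 1.42.0, no filter, 1 fit over all libraries, other fold limits and each library left out were tried as alternatives. The fits were tested on simulated data. The recovery asked of the interaction fits was lowered after DESeq2 had missed the first limit.

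Members and gene lists were chosen with earlier results of these data known. All members are named. Of each list, at most the 3 called genes with the smallest adjusted p were named per comparison described. Diablo, Fadd, and Xiap with Plus A and Trim AG, were named after their values were seen. Some genes are not reported here. Of the marker lists, Pecam1 and Cdh5 matched no row. Labels written as miR-125b A and Trim 1 to 3 were read as Plus A and as Trim A, as Trim AG and as Trim AGU, from the order in the treatment text. The labels do not say that replicates were separate cultures, so p-values measure only the spread between these samples. No pair of replicates agreed within sampling noise.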

Additional observations from a re-analysis of the deposited data

Results flagged for a closer look

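The differences listed here passed the test that an isomiR's difference from miR-125b itself differs between hypoxia and normoxia (edgeR's quasi-likelihood interaction term, Benjamini-Hochberg adjusted). Values are differences of log2 differences. A positive value means that the log2 change from normoxia to hypoxia was higher with the isomiR than with miR-125b, whichever oxygen state the gap lay in. With Trim AG, Casp4 gave 2.02, Casp12 1.25, Apaf1 -0.58 and Casp2 -0.56. Mean Casp4 with Trim AG and with miR-125b was 24.7 and 78.3 CPM in normoxia, and 148 and 120 CPM in hypoxia, so the gap lay mostly in normoxia. With Trim AGU, Casp4 gave 1.80. With Trim A, Casp4 gave 0.67. The Trim AG values stayed below an adjusted p of 0.05 with each library left out in turn. The Casp4 call ended in 10 of 12 such fits with Trim A and in 2 of 12 with Trim AGU. The summed myoblast markers moved in the same comparisons, at 213 to 224 CPM in Normoxia Trim AG and 54.8 to 66.9 CPM in Hypoxia Trim AG, and their part was not tested.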

How the results depend on the processing

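Of 170 results for single members, 36 were called, and 28 of these kept their call under each alternative other than the fold limits. No called result reversed its direction. With a limit of 2-fold instead of 1.5-fold, calls went from 12 to 7 against MC in hypoxia, from 5 to 2 against miR-125b in normoxia and from 12 to 7 in hypoxia against normoxia. With no fold limit they rose to 24, 9 and 22, and from 1 to 3 against miR-125b in hypoxia. A single fit over all libraries gave 2 calls against miR-125b in hypoxia. DESeq2 gave 10 interaction calls in place of 6. Leaving out each library in turn gave 10 to 14, 1 to 2, 5 to 7, 11 to 14 and 4 to 9 calls for the comparisons with MC, with miR-125b in hypoxia, with miR-125b in normoxia, of oxygen, and for the interaction. With a replicate block, the calls were 12, 1, 6, 14 and 5 in the same order. Same-numbered libraries did not deviate together (correlations from -0.35 to 0.19, with every pair over 0.1 in 0 of 18 comparisons), so the numbers were not taken as a pairing. The cause of these changes was not tested. Shares of all genes called are given above for the main setting only, so the counts under the alternatives have no background beside them. Counts were lowest for Casp1 and Casp6, with as few as 3 and 4 in a library.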
